A study of Mus musculus with 6 samples.

Results

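The TNF superfamily ligands are membrane proteins that assemble as trimers and act on receptors of neighboring cells, and many of them can also be shed from the surface as soluble cytokines. Their receptors either recruit TRAF adaptors, which feed the NF-κB and MAP kinase pathways, or carry a death domain that assembles FADD and caspase-8. Activated CD4 T cells are a known source of several of these ligands: CD40 ligand licenses B cells and dendritic cells, Fas ligand kills activated lymphocytes, and TNF and the lymphotoxins drive inflammation and lymphoid organization. The ligand set described here was *Tnf*, *Lta*, *Ltb*, *Tnfsf8*, *Tnfsf10*, *Tnfsf11*, *Tnfsf14*, *Cd40lg*, *Fasl* and *Cd70*, taken by name as ligands of the superfamily. It is not the whole family, and 8 other ligands are described further on. The set was chosen with earlier results of these data known. All 10 were found by their Ensembl identifiers among the 56748 genes of the deposited count table, and all 10 passed the filter on low counts that left 14936 genes for testing.

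RNA sequencing of poly-A RNA was carried out on cultures started from naïve CD4 T cells of wild-type C57BL/6J mice aged 6–10 weeks, taken from spleen and lymph nodes. The cells were activated through CD3 and CD28 under conditions that favor induced regulatory T cells (IL-2, TGF-β and antibodies blocking IFNγ and IL-4), and were not sorted before RNA extraction. From the start of the 3-day culture they received 10 μM of an antisense oligonucleotide (ASO), a short synthetic nucleic acid that pairs with a chosen transcript: either a scrambled sequence or a sequence directed at *Pgam*, which encodes the glycolytic enzyme phosphoglycerate mutase. The comparison asks which transcripts differ when this enzyme is targeted. Each group held 3 libraries, described in the study as biological replicates. No label ties a library to an individual mouse, and the p-values measure the spread between these libraries. Total counts were 17588755, 18032805 and 16231127 in the scrambled libraries and 16589933, 15860476 and 16803881 in the *Pgam* ASO libraries, in the order of replicates 1, 2 and 3, which is kept below. Levels are given as CPM, the counts of a gene scaled to a common library size, after TMM normalization, a scaling that corrects for differences in library composition.

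The targeted genes were examined first. *Pgam1*, the broadly expressed form of the enzyme, stood at 599.6, 478 and 707 CPM in the scrambled libraries and 658, 661 and 707 CPM in the *Pgam* ASO libraries. The *Pgam* ASO libraries lay above scrambled replicates 1 and 2 and below replicate 3, with a log2 fold change of 0.18 (SE 0.13, edgeR adjusted p = 0.331). The log2 fold change was 0.047 without scrambled replicate 2 and 0.33 without scrambled replicate 3 (edgeR adjusted p = 0.0528). *Pgam2*, the muscle form, was sparse at 5.23, 6.75 and 2.85 CPM against 2.98, 2.69 and 2.60 CPM, and its log2 fold change of -0.84 (SE 0.31) did not pass the threshold (edgeR adjusted p = 0.0854). It passed without scrambled replicate 3 (log2 fold change -1.11, edgeR adjusted p = 0.0144). Of the *Pgam1* 31-base words, the unit by which kallisto assigns reads, 37.1% also occur in processed copies of the gene, but the most counted copy, *Pgam1-ps2*, held 6.05 to 8.44 CPM per library. The *Pgam1* values of the groups overlapped, and PGAM1 protein was not measured in the data used here. The treated samples are called the libraries labelled *Pgam* ASO throughout, and every direction below is relative to that label.

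Across all genes, 2565 of 14936 (17.2%) passed an adjusted p of 0.05 in the quasi-likelihood test of edgeR (Benjamini-Hochberg adjustment over these genes), of which 1199 (8.03% of those tested) were higher and 1366 (9.15%) lower in the libraries labelled *Pgam* ASO. That total fell to 620 without scrambled replicate 1, 1256 without scrambled replicate 2, and 871 and 391 without replicates 1 and 2 labelled *Pgam* ASO. Against that background, 4 of the 10 ligands passed, all of them higher: *Tnfsf8*, *Tnfsf14*, *Cd40lg* and *Fasl*. Of the 10, 9 had a positive log2 fold change, also with RLE size factors and with library size alone, and the median was 0.45 compared with -0.01 over all tested genes. No ligand passed in the lower direction by edgeR, DESeq2 or limma-voom, and 1 had an unadjusted edgeR p under 0.05 there. In 6 ligands the values of the 3 libraries of one group did not overlap those of the other, as was the case for 39.5% of all tested genes. The count of 4 rested on single libraries: by edgeR it was 0 without scrambled replicate 1 (6 at an unadjusted p under 0.05), 0 without replicate 2 labelled *Pgam* ASO (4 unadjusted) and 1 without replicate 1 labelled *Pgam* ASO. With all libraries, limma-voom called 4 ligands and DESeq2 called 6. The cultures were unsorted, so a change in the share of cells that express a ligand and a change in RNA per cell cannot be told apart.

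**Figure D1:**
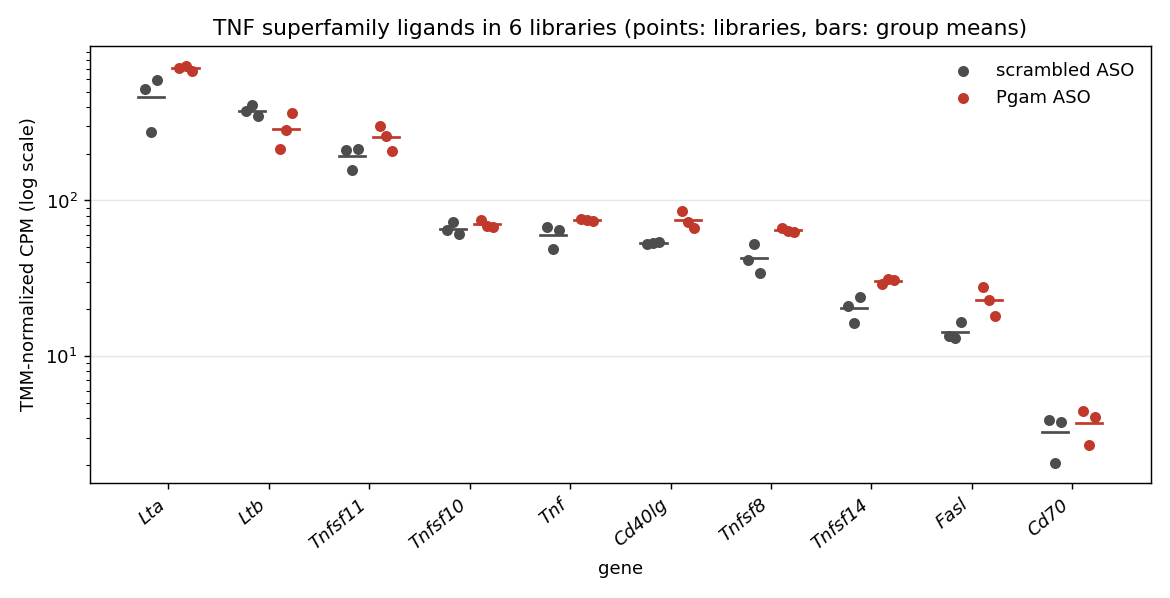
Normalized CPM (log axis) of the 10 ligands, 1 point per library and a bar at each group mean of 3 libraries, with scrambled ASO in gray and *Pgam* ASO in red. *Lta* and *Ltb* are the most counted ligands and *Cd70* the least, and the red points lie above all gray points for *Tnfsf8*, *Tnfsf14*, *Cd40lg*, *Fasl*, *Tnf* and *Lta*.

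*Fasl* (ENSMUSG00000000817, chr1:161780689-161788495, minus strand, GRCm38) encodes Fas ligand, which triggers apoptosis in cells that carry Fas. It was counted at 13.4, 13.1 and 16.5 CPM in the scrambled libraries and 27.8, 23.1 and 18.2 CPM in the libraries labelled *Pgam* ASO. Every library of the second group exceeded every scrambled library, although replicate 3 of the second group, the lowest there, was close to replicate 3 of the scrambled group, the highest there. The fold change was 1.60 (95% interval 1.24 to 2.08), or 0.68 on the log2 scale (SE 0.17, edgeR adjusted p = 0.0257). The call was lost without scrambled replicate 1 (edgeR adjusted p = 0.0977), without scrambled replicate 2 (0.0633), and without replicate 1 (0.0907) or replicate 2 (0.108) labelled *Pgam* ASO.

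*Cd40lg* (ENSMUSG00000031132, chrX:57212143-57224042, plus strand) encodes CD40 ligand, the helper signal that T cells give to B cells. Its scrambled values were nearly equal at 52.4, 53.6 and 53.8 CPM, and those labelled *Pgam* ASO were 85.3, 72.3 and 66.7 CPM. The lowest library of the second group stood well clear of the scrambled libraries, and *Cd40lg* had the smallest adjusted p of the ligands, 0.0146 by edgeR, at a log2 fold change of 0.49 (SE 0.10) or 1.40-fold. It did not pass without scrambled replicate 1 (edgeR adjusted p = 0.0694) or without replicate 2 labelled *Pgam* ASO (0.0704).

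*Tnfsf8* (ENSMUSG00000028362, chr4:63831308-63861347, minus strand) encodes CD30 ligand, a costimulatory molecule of activated T cells. Counts reached 41.6, 52.7 and 34.2 CPM in the scrambled libraries and 66.7, 63.6 and 62.5 CPM in those labelled *Pgam* ASO. The second group was tight and lay above all scrambled libraries, which were themselves more scattered. Its log2 fold change was 0.58 (SE 0.14, edgeR adjusted p = 0.0226). *Tnfsf14* (ENSMUSG00000005824, chr17:57189492-57194177, minus strand) encodes LIGHT, which binds the herpesvirus entry mediator HVEM and the lymphotoxin β receptor. It followed the same order, with 20.9, 16.4 and 24.1 CPM in the scrambled libraries and 29.3, 31.4 and 30.7 CPM in the others. The groups did not overlap, and the log2 fold change was 0.57 (SE 0.14, edgeR adjusted p = 0.0245). Both calls were lost without scrambled replicate 1, without replicate 1 labelled *Pgam* ASO and without replicate 2 labelled *Pgam* ASO, with edgeR adjusted p of 0.0873, 0.0674 and 0.0963 for *Tnfsf8* and 0.0803, 0.0571 and 0.111 for *Tnfsf14*.

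The 4 ligands above were the members that passed, and 3 of them have an entry among RefSeq promoter sequences (GRCm38.p6, 250 bases before to 50 bases after the transcription start); *Cd40lg* and *Cd70* have none, and 8 of the 10 ligands matched. The promoters are shown with that of *Tnfrsf8*, the receptor of the *Tnfsf8* product, which is described further on. Capitals mark GGAAA, the core recognized by NFAT, the calcium-dependent factor of T cell activation, and TGANTCA, the AP-1 element, on either strand, so that GGAAA on the opposite strand reads TTTCC. The *Fasl* window spans chr1:161788446-161788745, the *Tnfsf8* window chr4:63861235-63861534, the *Tnfsf14* window chr17:57194132-57194431 and the *Tnfrsf8* window chr4:145315115-145315414, all on the minus strand and written 5′ to 3′.
*Fasl* promoter: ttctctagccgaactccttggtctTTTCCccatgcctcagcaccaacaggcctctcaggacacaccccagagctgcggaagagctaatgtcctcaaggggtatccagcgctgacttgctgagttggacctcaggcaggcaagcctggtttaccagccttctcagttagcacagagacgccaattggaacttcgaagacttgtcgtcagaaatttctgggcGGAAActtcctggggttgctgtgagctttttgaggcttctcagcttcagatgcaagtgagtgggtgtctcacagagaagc
*Tnfsf8* promoter: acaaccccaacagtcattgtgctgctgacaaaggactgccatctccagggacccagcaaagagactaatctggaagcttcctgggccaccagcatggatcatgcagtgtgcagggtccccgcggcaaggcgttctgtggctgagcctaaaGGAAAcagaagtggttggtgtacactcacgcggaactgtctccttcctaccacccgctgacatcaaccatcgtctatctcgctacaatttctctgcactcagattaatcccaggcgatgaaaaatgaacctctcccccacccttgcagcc
*Tnfsf14* promoter: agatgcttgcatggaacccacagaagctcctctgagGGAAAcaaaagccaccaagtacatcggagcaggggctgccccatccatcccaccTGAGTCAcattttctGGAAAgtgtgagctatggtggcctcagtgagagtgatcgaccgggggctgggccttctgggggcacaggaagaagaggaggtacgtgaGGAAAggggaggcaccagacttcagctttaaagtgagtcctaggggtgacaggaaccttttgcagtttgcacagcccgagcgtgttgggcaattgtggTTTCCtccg
*Tnfrsf8* promoter: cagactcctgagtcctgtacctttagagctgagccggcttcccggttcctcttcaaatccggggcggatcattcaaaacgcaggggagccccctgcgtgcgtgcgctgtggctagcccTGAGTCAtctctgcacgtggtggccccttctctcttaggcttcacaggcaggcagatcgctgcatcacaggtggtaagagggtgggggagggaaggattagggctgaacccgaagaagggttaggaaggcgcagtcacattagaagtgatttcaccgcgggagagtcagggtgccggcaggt
The *Fasl* window held GGAAA at 2 places, the *Tnfsf8* window at 1 and the *Tnfsf14* window at 4. The letters GGAAA were common, occurring in 61.3% of 32851 promoters of the same length, whereas TGANTCA occurred in 7.81%. TGANTCA was present as TGAGTCA in the *Tnfsf14* window, 160 bases before the start, and in the *Tnfrsf8* window, 132 bases before it. A looser NF-κB-like pattern, GGGNNNNNCC on either strand, was found in 50.8% of all promoters, at 1 place in the *Fasl* window, 4 in that of *Tnfsf14*, 4 in that of *Tnfrsf8* and 0 in that of *Tnfsf8*, some of these places overlapping one another by all but 1 base. None of the marked letters overlapped this pattern in the 4 windows. These matches describe the letters only, and binding was not measured.

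The other 6 ligands did not pass the threshold. *Tnf*, *Lta* and *Ltb* lie side by side within 10913 bases of chromosome 17. *Tnf* (ENSMUSG00000024401, chr17:35199381-35202007, minus strand), the founding cytokine of the family, was counted at 67.6, 48.8 and 64.7 CPM in the scrambled libraries and 76.5, 74.8 and 73.7 CPM in the libraries labelled *Pgam* ASO. The second group was narrow and lay above all scrambled values, of which replicate 2 was the lowest. The log2 fold change was 0.31 (SE 0.12, 95% interval 0.05 to 0.58, edgeR adjusted p = 0.0922); it passed only when every gene with at least 1 count was tested (edgeR adjusted p = 0.0260; range over tools, scalings and filters 0.0260 to 0.111). Without scrambled replicate 2 the log2 fold change was 0.18 (edgeR adjusted p = 0.218).

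*Lta* (ENSMUSG00000024402, chr17:35203165-35205351, minus strand) encodes lymphotoxin α, which is secreted as a homotrimer or held at the membrane by lymphotoxin β. Its levels were 517, 274 and 598 CPM in the scrambled libraries and 707, 733 and 679.8 CPM in those labelled *Pgam* ASO. Scrambled replicate 2 stood far below the rest. The groups were separate but the scrambled spread was wide, and the log2 fold change of 0.61 had a 95% interval of -0.01 to 1.23 (edgeR adjusted p = 0.150). Without that library the difference was smaller, 0.34, but passed (edgeR adjusted p = 0.0370). With all 6 libraries DESeq2 also called *Lta* (adjusted p = 0.0219, the lowest of a range up to 0.417 over tools, scalings and filters).

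*Ltb* (ENSMUSG00000024399, chr17:35194439-35196320, plus strand) encodes lymphotoxin β, the membrane anchor of that heterotrimer, and was the only ligand with a negative log2 fold change over all 6 libraries. It was counted at 375, 409 and 348 CPM in the scrambled libraries and 213, 285 and 367 CPM in those labelled *Pgam* ASO. The groups overlapped through replicate 3 of the second group, which reached the scrambled range. The log2 fold change was -0.39 (SE 0.17, 95% interval -0.77 to -0.0033, edgeR adjusted p = 0.140); without that replicate it was -0.59 and passed (edgeR adjusted p = 0.0152), and without replicate 1 labelled *Pgam* ASO it was -0.21 (0.325). It also passed when every gene with at least 1 count was tested (0.00236, in a range up to 0.160).

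Because the products of *Lta* and *Ltb* form a joint trimer, their ratio was also computed, a choice made after the values were seen and given without a test. Per kilobase of exon, *Lta* was 1.51, 0.736 and 1.88 times the level of *Ltb* in the scrambled libraries and 3.64, 2.82 and 2.03 times in the libraries labelled *Pgam* ASO. Scrambled replicate 2 was the only library in which *Ltb* exceeded *Lta*, and the groups were separate by a small margin between the replicates numbered 3.

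The ends of these mRNAs differ in an element that binds decay factors. The nonamer TTATTTATT, the core AU-rich element recognized by tristetraprolin (*Zfp36*) and its relatives, occurred in the 3′UTR of 1610 of 20982 genes (7.67%, longest annotated 3′UTR of each gene in GENCODE M21). Among the ligands it was present in *Tnf*, at 5 overlapping places, and in *Lta*, at 1 place. It was absent from the other 8, including the 4 that passed in the main edgeR test. The 30-base windows around these elements, with every complete nonamer in capitals and 4 of the 5 places of *Tnf* complete in its window, lie at chr17:35199681-35199710 for *Tnf* and chr17:35203395-35203424 for *Lta*, both on the minus strand.
*Tnf* 3′UTR element: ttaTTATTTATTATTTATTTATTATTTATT
*Lta* 3′UTR element: aaaagttaagTTATTTATTtatagagaata
The shorter heptamer TATTTAT, present in 27.6% of 3′UTRs, was found in all ligands except *Ltb*, whose 3′UTR of 174 bases is short, as is that of *Cd70* at 78 bases, which held 1.

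*Tnfsf11* (ENSMUSG00000022015, chr14:78277445-78308043, minus strand) encodes RANKL, the osteoclast factor that activated T cells also make. It stood at 209, 158 and 214 CPM in the scrambled libraries and 302, 261 and 208 CPM in the others. Replicate 3 labelled *Pgam* ASO fell among the scrambled values, and the log2 fold change of 0.41 (95% interval 0.06 to 0.75) missed the threshold (edgeR adjusted p = 0.0925). It passed without that library (log2 fold change 0.54, edgeR adjusted p = 0.0244) and was 0.28 without replicate 1 of that group (0.276). It also passed in DESeq2 (adjusted p = 0.0472) and when every gene with at least 1 count was tested (0.000649 by edgeR), within a range up to 0.0973 over tools, scalings and filters. *Tnfsf10* (ENSMUSG00000039304, chr3:27317028-27342427, plus strand) encodes TRAIL, a death ligand, and was even across the libraries at 64.4, 72.6 and 61.1 CPM against 74.5, 68.7 and 67.8 CPM. The groups overlapped, and the 95% interval of its log2 fold change ran from -0.12 to 0.30 (edgeR adjusted p = 0.523). *Cd70* (ENSMUSG00000019489, chr17:57145997-57149777, minus strand) encodes the ligand of CD27 and was rare, with 69, 38 and 61 counts in the scrambled libraries and 71, 42 and 69 in the others. Its interval of -0.48 to 0.90 on the log2 scale was wide (edgeR adjusted p = 0.669), and without scrambled replicate 2 the sign of the log2 fold change turned (-0.04).

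**Figure D2:**
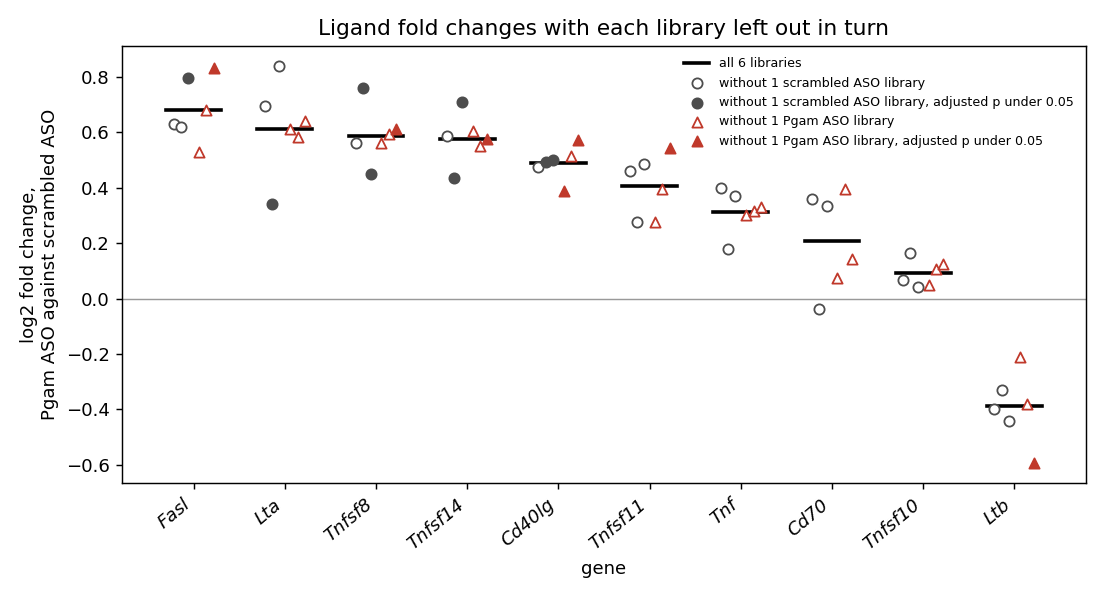
Log2 fold change of each ligand with all 6 libraries (black bar) and with each library left out in turn (circles, a scrambled library left out; triangles, a library labelled *Pgam* ASO left out; filled, edgeR adjusted p under 0.05). *Fasl*, *Tnfsf8*, *Tnfsf14* and *Cd40lg* kept positive values in every refit, from 0.39 for *Cd40lg* to 0.83 for *Fasl*, and passed the threshold in 2 to 4 of the 6 refits each.

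Levels were compared between ligands per kilobase of exon. Averaged over all 6 libraries, *Lta* led with 423 CPM per kilobase, followed by *Ltb* with 219 and *Tnfsf11* with 101. *Cd40lg* (51.2) and *Tnf* (41.3) came next, and *Tnfsf8* (14.1), *Tnfsf14* (13.8), *Tnfsf10* (12.9), *Fasl* (9.64) and *Cd70* (4.14) formed the lower end. In the scrambled libraries *Lta* and *Ltb* overlapped (198 to 432 and 229.9 to 269.5 CPM per kilobase), whereas in those labelled *Pgam* ASO *Lta* was higher in every library (492 to 530.3 against 140.5 to 242). *Tnfsf8*, *Tnfsf14* and *Tnfsf10* overlapped in the scrambled libraries, where the 3 genes ranged from 8.89 to 13.8 CPM per kilobase and *Tnfsf10* had the highest mean. In those labelled *Pgam* ASO, *Tnfsf10* (12.9 to 14.1) was below *Tnfsf8* (16.4 to 17.5) and *Tnfsf14* (15.8 to 17.02) in every library. The rank of all 10 ligands was the same with the longest transcript as the length.

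**Figure D3:**
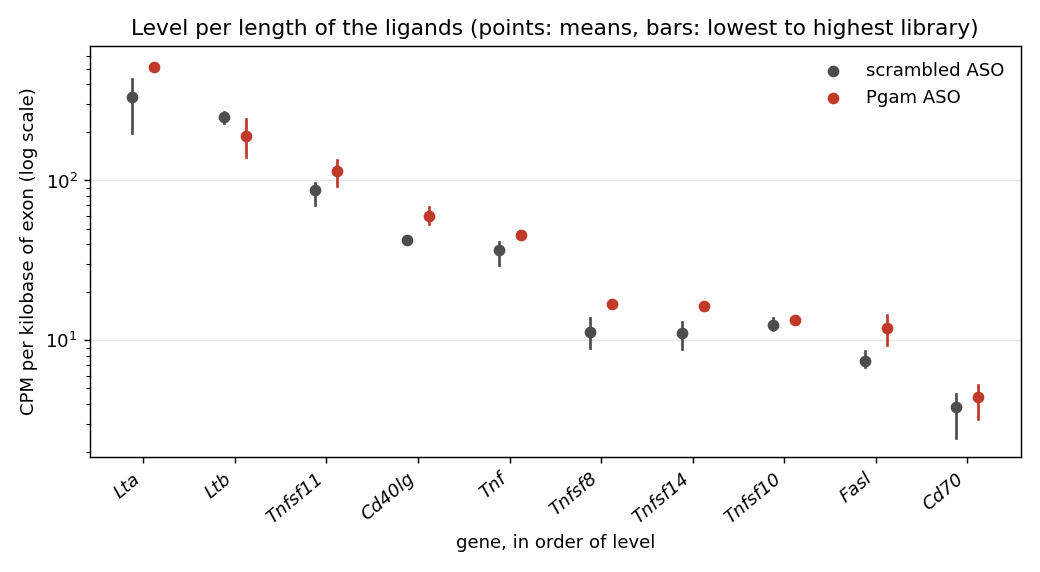
Level per length of the ligands (CPM per kilobase of exon, log axis) in the order of their mean, with a point at the mean of 3 libraries and a bar from the lowest to the highest library of each group. The levels span from 4.14 for *Cd70* to 423 for *Lta*, and the scrambled bars of *Tnfsf8*, *Tnfsf14* and *Tnfsf10* overlap.

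The remaining 8 ligands of the family had low counts or none. *Tnfsf13* and *Tnfsf18* had no count in any library, *Tnfsf12* and *Eda* were too low to test, and of the 4 tested none passed by edgeR, DESeq2 or limma-voom, with 1 at an unadjusted edgeR p under 0.05. The groups did not overlap for 2 of the 4, beside 39.5% of all tested genes. These were *Tnfsf9*, which was lower (log2 fold change -0.36), and *Tnfsf13b*, which was higher (0.78). Of the 4, 2 had a positive log2 fold change, and the median was 0.11. The highest by mean CPM over the 6 libraries, *Tnfsf4*, which encodes OX40 ligand, stood at 8.55, 9.88 and 10.04 CPM in the scrambled libraries and 9.13, 8.73 and 7.10 CPM in the others, with overlapping groups (log2 fold change -0.19, SE 0.17, edgeR adjusted p = 0.456). Per kilobase *Tnfsf9* was higher than *Tnfsf4* in both groups, at 7.54 and 5.87 CPM against 5.15 and 4.52 CPM. Both had higher group means per kilobase than *Cd70*, at 3.85 and 4.43 CPM. The summed level of the 10 ligands above was 1365, 1100.2 and 1419 CPM in the scrambled libraries and 1586, 1616 and 1578 CPM in those labelled *Pgam* ASO, compared with 20.7, 22.3 and 21.4 and 19.8, 19.1 and 19.6 CPM for the remaining 8. *Lta*, which did not pass, was the largest part of the sum of the 10. Its group means were 463 and 707 CPM, within mean sums of 1295 and 1593 CPM.

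Most receptors that passed were lower, whereas the ligands that passed were higher, a difference between the lists that was not tested. Of 13 receptors, 12 were tested and 7 passed, 2 of them higher (*Tnfrsf8* and *Tnfrsf10b*) and 5 lower (*Tnfrsf1b*, *Tnfrsf14*, *Tnfrsf23*, *Fas* and *Cd27*), beside 17.2% of all tested genes, 8.03% higher and 9.15% lower. Their median log2 fold change was -0.51, compared with 0.45 for the ligands and -0.01 over all tested genes. The groups did not overlap for 8 of the 12, beside 39.5% of all tested genes. The count of 7 became 4 without scrambled replicate 1, 4 without scrambled replicate 2 and 2 without replicate 2 labelled *Pgam* ASO. Those 2 were *Tnfrsf8*, which was higher, and *Tnfrsf1b*, which was lower. Receptors outside the rule for named genes are given below to complete each ligand and receptor pair.

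**Figure D4:**
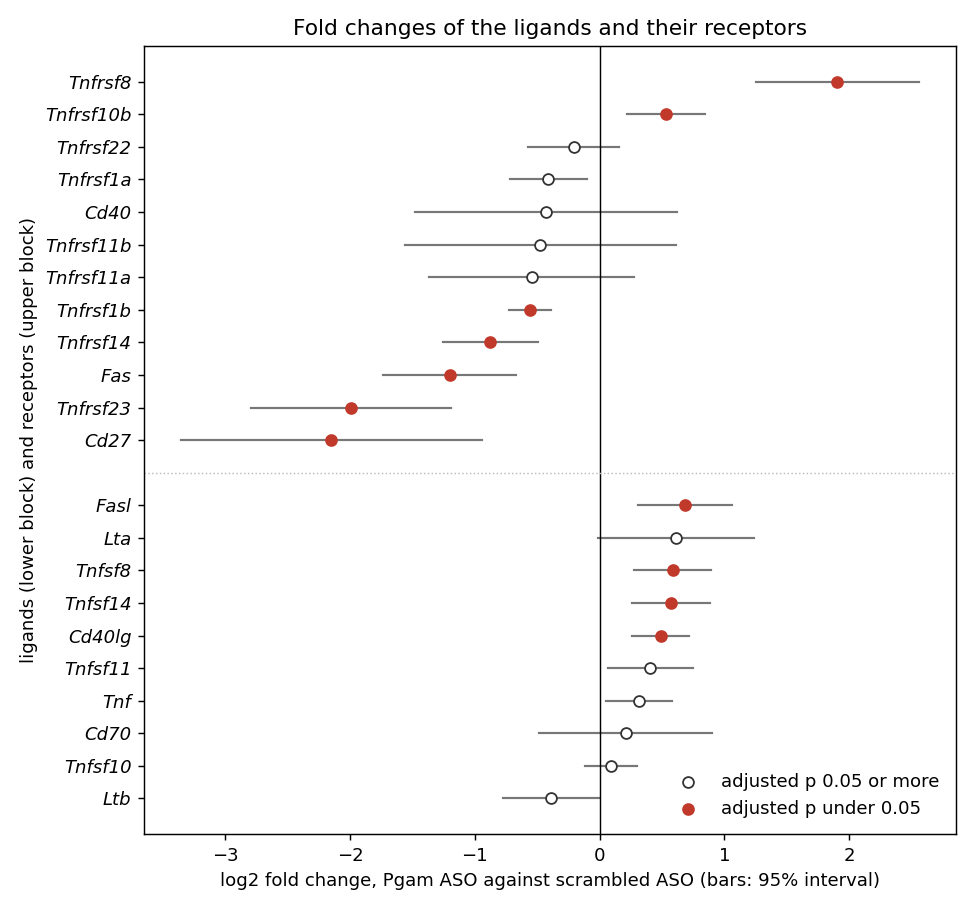
Log2 fold change, libraries labelled *Pgam* ASO against scrambled ASO, of the 10 ligands (lower block) and the 12 tested receptors (upper block), with 95% intervals; filled points had an edgeR adjusted p under 0.05. The points of 9 of the 10 ligands lie to the right of 0 and those of 10 of the 12 receptors to the left, with *Tnfrsf8* the farthest to the right at 1.90 and *Cd27* the farthest to the left at -2.15.

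*Tnfrsf8* (ENSMUSG00000028602, chr4:145267137-145315164, minus strand) encodes CD30, the receptor of the *Tnfsf8* product, and was the receptor that rose most. It was counted at 39.00, 26.6 and 56.9 CPM in the scrambled libraries and 178, 152 and 127 CPM in those labelled *Pgam* ASO. The lowest library of the second group was more than 2 times the highest scrambled one. The log2 fold change was 1.90 (SE 0.27, edgeR adjusted p = 0.00914), a 3.74-fold difference (95% interval 2.38 to 5.88), and the call held without each library in turn. The mRNAs of CD30 and its ligand were higher in the same libraries. *Tnfrsf8* was the only receptor that passed in the same direction as a ligand of its own that also passed.

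For Fas ligand the receptor went the opposite way. *Fas* (ENSMUSG00000024778, chr19:34290666-34327772, plus strand), the death receptor, stood at 33.1, 38.7 and 28.1 CPM in the scrambled libraries and 9.44, 14.3 and 19.6 CPM in those labelled *Pgam* ASO. All values of the second group were below all scrambled values. Its log2 fold change was -1.20 (SE 0.24, edgeR adjusted p = 0.0141), and the call was lost without scrambled replicate 1 (edgeR adjusted p = 0.0511), without scrambled replicate 2 (0.0526) and without replicate 2 labelled *Pgam* ASO (0.0765).

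*Cd27* (ENSMUSG00000030336, chr6:125232622-125237010, minus strand) encodes the receptor of CD70, a costimulatory molecule of naïve and memory T cells. It varied widely within the scrambled group at 76.8, 136 and 49.3 CPM, and was 12.4, 17.1 and 29.5 CPM in the other. The groups were separate, and the log2 fold change of -2.15 (SE 0.49, edgeR adjusted p = 0.0372) was the most negative among the receptors. It was lost without scrambled replicate 1 (edgeR adjusted p = 0.0935) or 2 (0.0971), without replicate 1 (0.108) or 2 (0.124) labelled *Pgam* ASO, and when every gene with at least 1 count was tested (0.120, in a range from 0.00190 over tools, scalings and filters).

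Of the 2 TNF receptors, 1 passed. *Tnfrsf1b* (ENSMUSG00000028599, chr4:145213463-145246870, minus strand), the form found mainly on immune cells, which recruits TRAF proteins, was at 155, 150.3 and 149 CPM in the scrambled libraries and 102, 107 and 100.1 CPM in those labelled *Pgam* ASO. Both groups were tight and far apart (log2 fold change -0.56, SE 0.08, edgeR adjusted p = 0.00248), and the call held without each library in turn. *Tnfrsf1a*, the death-domain form, also did not overlap between groups, at 23.3, 29.1 and 23.3 against 16.9, 18.4 and 21.7 CPM, but did not pass (log2 fold change -0.41, SE 0.14, edgeR adjusted p = 0.0652). Without replicate 3 labelled *Pgam* ASO it passed (edgeR adjusted p = 0.0340), and also when every gene with at least 1 count was tested (0.0387, in a range up to 0.0701).

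*Tnfrsf14* (ENSMUSG00000042333, chr4:154921933-154928563, minus strand) encodes HVEM, the receptor of LIGHT on T cells. It was counted at 26.4, 35.00 and 24.3 CPM in the scrambled libraries and 12.8, 15.7 and 18.2 CPM in the others. The groups did not overlap (log2 fold change -0.88, SE 0.17, edgeR adjusted p = 0.0116), and the call was lost only without replicate 2 labelled *Pgam* ASO (edgeR adjusted p = 0.0690). The other receptor of LIGHT and of membrane lymphotoxin, *Ltbr*, had 3, 10 and 4 counts in the scrambled libraries and 7, 5 and 4 in those labelled *Pgam* ASO, and was too low to test.

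The TRAIL receptors divided. *Tnfrsf10b* (ENSMUSG00000022074, chr14:69767472-69784411, plus strand), the death receptor for TRAIL, was at 15.9, 15.7 and 15.2 CPM in the scrambled libraries and 26.8, 21.4 and 19.3 CPM in those labelled *Pgam* ASO. The scrambled values were nearly equal and all lower (log2 fold change 0.53, SE 0.14, edgeR adjusted p = 0.0307), but the call was lost without scrambled replicate 1 (edgeR adjusted p = 0.0970) or 2 (0.0621) and without replicate 1 (0.107) or 2 (0.102) labelled *Pgam* ASO. *Tnfrsf23* (ENSMUSG00000037613, chr7:143665809-143685872, minus strand), a decoy receptor that lacks a death domain, was low at 3.94, 5.18 and 3.84 CPM and lower still at 0.870, 0.642 and 1.72 CPM. The groups were separate, with a log2 fold change of -1.99 (SE 0.36, edgeR adjusted p = 0.00868), lost only without replicate 2 labelled *Pgam* ASO (edgeR adjusted p = 0.0534). Its neighbor and near copy *Tnfrsf22* stood at 11.3, 15.01 and 10.97 CPM against 10.5, 10.3 and 11.5 CPM with overlapping groups (edgeR adjusted p = 0.397). Of the *Tnfrsf23* 31-base words, 28.5% occur in other genes, most often in *Tnfrsf22*, so the split of counts between them is uncertain.

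The receptors of RANKL and CD40 ligand were scarce. *Tnfrsf11a*, which encodes RANK, *Tnfrsf11b*, its soluble decoy, and *Cd40* had means of at most 2.75 CPM in either group, overlapping groups and 95% intervals of -1.37 to 0.28, -1.56 to 0.61 and -1.48 to 0.62 on the log2 scale.

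**Figure D5:**
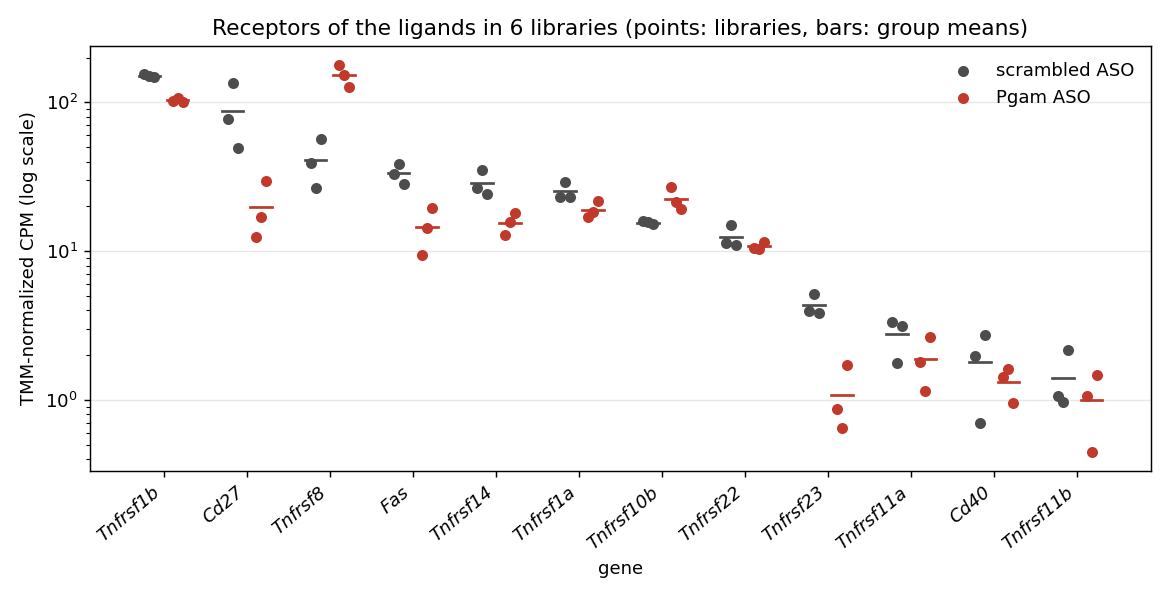
Normalized CPM (log axis) of the 12 tested receptors, 1 point per library and a bar at each group mean of 3 libraries. The *Tnfrsf8* points of the libraries labelled *Pgam* ASO lie above all scrambled points, as do those of *Tnfrsf10b*, and those of *Tnfrsf1b*, *Cd27*, *Fas*, *Tnfrsf14*, *Tnfrsf1a* and *Tnfrsf23* lie below.

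Downstream of the receptors, 14 adaptors and regulators were all tested and 5 passed, 1 higher and 4 lower, beside the 17.2% of all genes and with a median log2 fold change of -0.07. The count was 2 without scrambled replicate 1, 3 without replicate 1 labelled *Pgam* ASO and 1 without replicate 2 labelled *Pgam* ASO. *Casp8*, the initiator caspase recruited by death receptors, was the one that rose, from 141, 144 and 149 CPM in the scrambled libraries to 184, 203 and 196 CPM in those labelled *Pgam* ASO. The groups did not overlap (log2 fold change 0.43, SE 0.08, edgeR adjusted p = 0.00980), and the call was lost without scrambled replicate 1 (edgeR adjusted p = 0.0631) and without replicate 2 labelled *Pgam* ASO (0.0721). *Traf1*, an NF-κB-induced adaptor that pairs with TRAF2, fell from 272, 287 and 264 CPM to 189, 171 and 178 CPM. This difference was large against the spread within either group and was called without each library in turn (log2 fold change -0.61, SE 0.08, edgeR adjusted p = 0.00211).

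*Birc2* and *Birc3* encode the ubiquitin ligases cIAP1 and cIAP2, which sit with TRAF2 at the receptors and hold back cell death. *Birc2* was 99.8, 121 and 91.4 CPM in the scrambled libraries and 53.8, 58.00 and 74.9 CPM in those labelled *Pgam* ASO, without overlap (log2 fold change -0.74, SE 0.14, edgeR adjusted p = 0.0107), and was lost only without replicate 2 labelled *Pgam* ASO (edgeR adjusted p = 0.0730). *Birc3* and *Tank*, which encodes a TRAF-binding regulator of NF-κB signaling, changed less. *Birc3* had a log2 fold change of -0.28 (SE 0.08, edgeR adjusted p = 0.0331) and *Tank* one of -0.30 (SE 0.08, 0.0325), with separate groups in both. For *Birc3* the call was lost without scrambled replicate 1 (edgeR adjusted p = 0.139) and without replicate 1 (0.0908), 2 (0.125) or 3 (0.0675) labelled *Pgam* ASO. For *Tank* it was lost without scrambled replicate 1 (edgeR adjusted p = 0.122) or 2 (0.0741) and without replicate 1 (0.115) or 2 (0.115) labelled *Pgam* ASO. When every gene with at least 1 count was tested, neither passed (edgeR adjusted p = 0.0584 and 0.0518, in ranges from 0.0193 and 0.0219 over tools, scalings and filters).

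The last list held 13 genes for shedding of the ligands and for the stability of their mRNAs. All were tested and 4 passed, 1 higher and 3 lower, beside the 17.2% of all genes and with a median log2 fold change of -0.16. The count became 2 without scrambled replicate 1, 2 without replicate 1 labelled *Pgam* ASO and 1 without replicate 2 labelled *Pgam* ASO. None of the 5 shedding genes was among them: *Adam17*, the protease that releases soluble TNF, had a log2 fold change of -0.21 (SE 0.08, edgeR adjusted p = 0.0891) and *Adam10* was level at 188, 188 and 186 CPM against 189, 199.6 and 171 CPM. The 3 that fell were the whole tristetraprolin family on the list, whose proteins bind AU-rich elements such as those shown above and promote decay of the mRNA. *Zfp36* was 47.4, 58.9 and 38.2 CPM in the scrambled libraries and 22.05, 26.6 and 30.7 CPM in those labelled *Pgam* ASO. *Zfp36l1* was 214, 281 and 189 CPM against 127, 121 and 127 CPM. *Zfp36l2* was 306, 425 and 262 CPM against 217, 198 and 228 CPM. In all 3, scrambled replicate 2 was the highest library and every library labelled *Pgam* ASO was below every scrambled one.

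The log2 fold change was -0.87 for *Zfp36* (SE 0.17, edgeR adjusted p = 0.0116), -0.87 for *Zfp36l1* (SE 0.13, 0.00391) and -0.63 for *Zfp36l2* (SE 0.16, 0.0293). *Zfp36l1* was called without each library in turn. *Zfp36* was lost without replicate 2 labelled *Pgam* ASO (edgeR adjusted p = 0.0690), and *Zfp36l2* without scrambled replicate 1 (0.0689) and without replicate 1 (0.0774) or 2 (0.124) labelled *Pgam* ASO. *Elavl1*, which encodes HuR, a protein that binds AU-rich elements and stabilizes mRNAs, was the one that rose. It stood at 123, 106 and 126 CPM in the scrambled libraries and 162, 156 and 139 CPM in those labelled *Pgam* ASO, without overlap (log2 fold change 0.37, SE 0.10, edgeR adjusted p = 0.0312), and was lost without scrambled replicate 1 (edgeR adjusted p = 0.0914) or 2 (0.0729) and without replicate 1 (0.106) or 2 (0.130) labelled *Pgam* ASO. In the main edgeR test, the ligands that hold the nonamer, *Tnf* and *Lta*, did not pass, and those that passed do not hold it. This was a split by threshold. The log2 fold change of *Lta*, 0.61, lay within the range of the ligands that passed, 0.49 to 0.68, and that of *Tnf* was 0.31. The split by threshold did not hold throughout either. *Lta* passed by DESeq2 (adjusted p = 0.0219) and by edgeR without scrambled replicate 2 (adjusted p = 0.0370). *Tnf* passed by edgeR when every gene with at least 1 count was tested (adjusted p = 0.0260). Whether decay of any ligand mRNA differed was not tested. Exons of *Zfp36*, *Zfp36l1*, *Zfp36l2*, *Elavl1* and *Tnfrsf23* overlap exons of a gene on the opposite strand, and since the use of strand in counting is not given in the sources used here, reads of the partners cannot be told apart. For *Zfp36l1*, 59.99% of its 31-base words also occur in other genes, most often in its antisense partner *Gm26669*.

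Over the 4 lists together, 16 of 43 tested pathway genes passed, 4 higher and 12 lower, beside the 17.2% of all genes, and their median log2 fold change was -0.21. The count was 8 without scrambled replicate 1, 10 without replicate 1 labelled *Pgam* ASO and 4 without replicate 2 labelled *Pgam* ASO.

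The genes nearest to *Cd40lg*, the ligand with the smallest adjusted p, were sought among 11833 tested genes with a symbol and a mean log2 CPM of at least 1, by the root mean square difference of centered log2 CPM over the 6 libraries. The closest 5 were *Btla* (0.0218), *Exosc1* (0.0300), *Tcof1* (0.0423), *Mtap* (0.0435) and *1810032O08Rik* (0.0452). No ligand passed in the lower direction, so none was used there.

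The cell type label was compared with marker genes. All 10 CD4 T cell markers were tested, and their summed level was 4681, 4820.2 and 4564 CPM in the scrambled libraries and 4186, 4298 and 4334 CPM in those labelled *Pgam* ASO, led by *Thy1* at a mean of 1049.7 CPM. *Cd28* and *Cd5* passed, 2 of 10 beside the 17.2% of all genes, both lower, with log2 fold changes of -0.66 (SE 0.09, edgeR adjusted p = 0.00183) and -0.49 (SE 0.11, 0.0193), while *Cd4* itself stood at 775, 804 and 732 CPM against 650.2, 651 and 697 CPM. The groups did not overlap for 8 of the 10, beside 39.5% of all tested genes, and the same 8 had an unadjusted edgeR p under 0.05, 7 of them lower and *Thy1* higher. The CD8 T cell markers summed to 11.3, 13.5 and 10.8 CPM and 14.6, 10.9 and 15.7 CPM, led by *Cd8b1* (log2 fold change -0.20, SE 0.18, edgeR adjusted p = 0.454), and 1 of 2, *Cd8a*, was higher (log2 fold change 1.12, SE 0.29, edgeR adjusted p = 0.0286).

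Markers of other cell types were at or near 0 with few exceptions. The 4 NK cell markers summed to at most 0.594 CPM in any library, with *Klrb1c* and *Klra4* at 0 throughout, *Klre1* the most abundant and none tested. The 11 myeloid markers summed to 11.8, 11.2 and 9.79 CPM and 10.7, 9.37 and 10.6 CPM, led by *Cd68*, and of 5 tested none passed by edgeR, DESeq2 or limma-voom, with 1 at an unadjusted edgeR p under 0.05. The 4 erythroid markers summed to 2.76, 2.32 and 1.43 CPM and 1.30, 1.86 and 1.60 CPM, led by *Alas2*, and of 2 tested none passed by the same 3 tools or at an unadjusted p of 0.05 by edgeR. The 8 mast cell and basophil markers summed to 6.98, 7.78 and 8.18 CPM and 7.64, 6.61 and 6.75 CPM, led by *Kit*, with *Mcpt4* at 0. Of 3 tested, *Kit* was lower (log2 fold change -1.68, SE 0.35, edgeR adjusted p = 0.0142) and *Gata2* higher (1.59, SE 0.48, 0.0469). The third, *Cpa3*, was also higher but did not pass by edgeR (1.09, SE 0.34, 0.0526), while all 3 passed by DESeq2. The untested *Mcpt8* and *Fcer1a* were higher and did not overlap, *Ms4a2* and *Prss34* overlapped, and none of the 4 exceeded 1 CPM in any library.

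*Ighm*, a transcript of B cells, had 319.9, 447 and 216 CPM in the scrambled libraries and 75.6, 111 and 142 CPM in those labelled *Pgam* ASO, and it passed (log2 fold change -1.58, SE 0.33, edgeR adjusted p = 0.0282). Its highest scrambled value was in replicate 2. Among the receptors that passed and were lower, the same held for *Cd27*, *Fas*, *Tnfrsf14* and *Tnfrsf23*, but not for *Tnfrsf1b*. That library also held the highest scrambled value of the T cell markers *Cd3e*, *Cd3d*, *Cd3g*, *Cd4*, *Cd28*, *Cd5* and *Trbc2*. It did not for *Lck*, *Thy1* and *Cd2*. The part of other cells in these values was not tested. The share of counts from mitochondrial genes was 1.95%, 2.12% and 1.93% in the scrambled libraries and 1.24%, 1.44% and 1.32% in those labelled *Pgam* ASO. It moved with the groups, and its part in the ligand values was not tested.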

How the data were processed

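Poly-A RNA of 6 libraries was sequenced, and the authors deposited 1 table of kallisto's estimated counts per gene, without normalization; the submitters' notes name GRCm38, and the kallisto version and the use of strand are not given in the sources used here. The estimated counts were deposited as whole numbers, so that rounding changed nothing. Ensembl identifiers were matched to GENCODE symbols (52073 of 56748). Low counts were removed with filterByExpr, and groups were compared with edgeR 4.0.16 in R 4.3.3 (TMM, robust quasi-likelihood test, Benjamini-Hochberg adjustment over all tested genes, no covariate). The standard error is the log2 fold change divided by the square root of F. DESeq2 1.42.0, limma 3.58.1, other scalings and filters, a replicate block and the omission of each library were run as alternatives, and the steps were tested on simulated data. The members, gene lists and rules were chosen with earlier results of these data known. Named genes were the 10 ligands, *Pgam1*, *Pgam2*, each pathway gene past an adjusted p of 0.05 or, where a list had none, its most abundant gene, and the 5 genes nearest to *Cd40lg*. Exon lengths and 3′UTRs came from GENCODE M21, and promoters from RefSeq. The deposited counts hold Ensembl identifiers newer than GENCODE M21, so lengths and coordinates come from a release other than the one used for counting.

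Of the B cell markers in the design, only *Ighm* is described; the result for the set is not reported here.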

Additional observations from a re-analysis of the deposited data

How the results depend on the processing

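The 4 ligands that passed kept their direction in every alternative run, and passed in DESeq2 and limma-voom, with RLE scaling or none, and with both other filters. The number of ligands called was 7 when every gene with at least 1 count was tested, 0 at an adjusted p of 0.01 (0 by limma-voom, 4 by DESeq2 and 7 at an unadjusted edgeR p under 0.05), and 0 to 6 with each library left out in turn. The number of all genes called was 453 at an adjusted p of 0.01 and 391 to 3484 with each library left out. The number of pathway genes called was 6 at an adjusted p of 0.01 and 4 to 18 with each library left out. *Pgam2* passed when every gene with at least 1 count was tested (log2 fold change -0.83) and without scrambled replicate 3 (-1.11, edgeR adjusted p = 0.0144), and ranged up to -0.56 with each library left out. The log2 fold change of *Cd70* ran from -0.038, without scrambled replicate 2, to 0.39 with each library left out. Refits without a library hold fewer samples; the cause of the other shifts was not tested. The 3 libraries a group limit what can be called, and genes at a few CPM, such as *Cd70* and *Tnfrsf11b*, have wide intervals.

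Libraries that share a replicate number did not deviate together (correlations of 0.05, -0.03 and -0.24 for numbers 1, 2 and 3), so the number is not taken as a pairing. With it as a replicate block, 1235 genes, 3 ligands (without *Fasl*) and 10 pathway genes were called. The pathway calls lost with the block were *Cd27*, *Tnfrsf10b*, *Birc3*, *Tank*, *Zfp36l2* and *Elavl1* (edgeR adjusted p from 0.0597 to 0.0918).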
